A study of Rattus norvegicus with 12 samples.

Results

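Complement is a set of blood and tissue proteins that tag and destroy targets, and 8 of its genes were followed here across the brains of animals with a model of Alzheimer's disease. They are the C1q chain genes C1qa, C1qb and C1qc, the central component gene C3, the anaphylatoxin receptor genes C3ar1 and C5ar1, the convertase inhibitor gene Cd55, and Itgam, which encodes the CD11b chain of a receptor for cleaved C3. The members were picked by symbol from a table of 31177 gene rows, each symbol had 1 row, and all 8 were among the 18850 genes with enough counts to be tested. The table holds 12 RNA-seq libraries of brain tissue, with 4 in each of 3 groups. AD-HFD is the model of Alzheimer's disease combined with a high-fat diet, AD is the same model without the diet, and Sham is the control group. A library is written as its group with its replicate number, so AD-3 is replicate 3 of AD. Some labels speak of mice, while the organism field says rat and the table carries rat Ensembl identifiers, and the samples were treated as rat. The strain, age, sex, brain region, way of making the model and length of the diet are not stated in the sources used here, nor whether the replicates were different animals. The p-values therefore reflect the spread among these libraries, which may be technical. A group on the diet without the model was not analysed here.

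In the classical pathway, C1q binds a target and starts a protease cascade that splits C3. The fragment C3b sticks to the target, the small fragments C3a and C5a act on the receptors encoded by C3ar1 and C5ar1, and CD11b with its partner CD18 recognises the later fragment iC3b. In the brain C1q is made mainly by microglia, the resident macrophages, and in mouse models of Alzheimer's disease C1q, C3 and CD11b take part in the engulfment of synapses by microglia. CD55, also called decay-accelerating factor, takes apart the convertases on host cells.

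Total counts per library ran from 26668974 to 35351792. Levels are CPM, counts per 1000000 counts of the library after TMM scaling, differences are log2 fold changes ± SE, and a gene was called when its p from the quasi-likelihood test of edgeR, with Benjamini-Hochberg adjustment over all 18850 genes, was under 0.05. The libraries differed in tissue markers within and between groups. The summed level of 11 thalamus markers was 122 to 140 CPM in AD-HFD and 142 CPM in AD-3, but 686 CPM in AD-2, 1543 CPM in AD-4 and 2156 CPM in AD-1, with Sham at 88.3 to 221 CPM. Choroid plexus markers (10 genes) summed to 10554 CPM in AD-HFD-1 and 560 CPM in AD-HFD-2, to at most 32.9 CPM in the other AD-HFD and all AD libraries, to 4705 CPM in Sham-2 and 4584 CPM in Sham-3. Red blood cell markers (6 genes) reached 4224 CPM in the library AD-HFD-4, where Sham held 160 to 364 CPM. The microglia markers Csf1r, Cx3cr1, Tmem119 and Aif1 were detected in all groups, and Siglech was at 0 in 9 libraries.

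All 8 genes were higher in AD-HFD than in Sham, 5 of them were higher in AD than in Sham, and none passed the test between AD-HFD and AD. The 3 C1q genes followed one another across the libraries, the receptor genes and Cd55 had the larger fold changes, and C3 had a log2 fold change near 0 in AD against Sham (-0.04), whose sign depended on the libraries used. AD-HFD-4 had the highest level of all 12 libraries for 8 of 8 genes. Within the AD-HFD group AD-HFD-3 had the lowest level for 7 of 8 genes, the exception being Cd55. In the AD group AD-3 and AD-4 stood above AD-1 and AD-2 for each of the 8 genes.

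**Figure D1:**
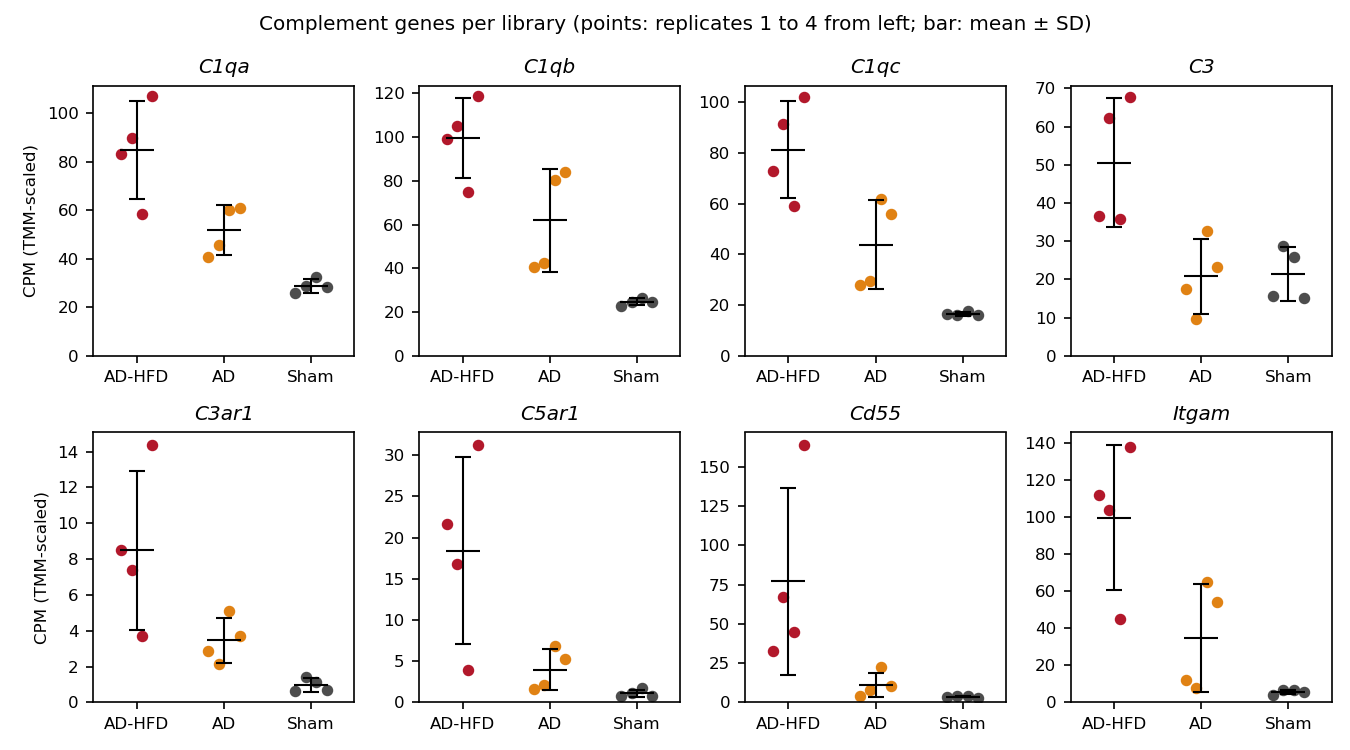
Level of each complement gene in CPM (y axis, from 0) in the AD-HFD, AD and Sham libraries. Points are libraries with replicates 1 to 4 from left to right, and bars are mean ± SD (n = 4). The AD libraries form a lower and a higher pair for C1qb, C1qc and Itgam, and AD-HFD-4 is the highest point in every panel.

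C1q is built of 3 chains, encoded by C1qa, C1qb and C1qc, which lie next to each other on rat chromosome 5 in the order C1qb, C1qc, C1qa with no annotated gene between them (RefSeq, GRCr8). C1qa (ENSRNOG00000012807) stood at 83.2, 89.9, 58.6 and 107 CPM in AD-HFD-1 to AD-HFD-4, at 40.7, 45.5, 60.2 and 61.1 CPM in AD-1 to AD-4, and at 26.0, 28.6, 32.7 and 28.2 CPM in Sham-1 to Sham-4. C1qb (ENSRNOG00000012749) stood at 99.3, 105, 75.0 and 118 CPM in the AD-HFD libraries, at 40.6, 42.3, 80.3 and 84.2 CPM in the AD libraries, and at 22.8, 24.6, 26.6 and 24.6 CPM in the Sham libraries. C1qc (ENSRNOG00000012804) stood at 72.7, 91.4, 59.0 and 102 CPM in the AD-HFD libraries, at 28.0, 29.7, 61.9 and 56.2 CPM in the AD libraries, and at 16.5, 16.1, 17.9 and 16.2 CPM in the Sham libraries. For all 3 genes every AD-HFD and every AD library was above every Sham library, while AD-HFD-3 lay inside the range of the AD libraries.

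Relative to Sham, C1qa rose 1.80-fold in AD (log2 0.85 ± 0.196, adjusted p = 0.0286), C1qb 2.51-fold (log2 1.33 ± 0.247, adjusted p = 0.0121) and C1qc 2.63-fold (log2 1.40 ± 0.268, adjusted p = 0.0136). In AD-HFD the rises over Sham were 2.93-fold for C1qa (log2 1.55 ± 0.199), 4.03-fold for C1qb (log2 2.01 ± 0.251) and 4.87-fold for C1qc (log2 2.28 ± 0.274), with adjusted p from 0.00137 to 0.00152. In AD the call for C1qa was lost without AD-4 or any 1 Sham library (edgeR adjusted p 0.0570 to 0.0873), that for C1qc without Sham-4 (edgeR adjusted p = 0.0518), and that for C1qb in none of the 12 fits that left out 1 library. The spread was wider in the model groups than in the controls. The coefficient of variation of C1qc was 23.6% in AD-HFD and 40.1% in AD, against 4.96% in Sham.

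The proportions among the C1q chain counts differed between the libraries of the model and Sham. There were 1.19, 1.17, 1.28 and 1.11 C1qb counts per C1qa count in AD-HFD-1 to AD-HFD-4 and 0.999, 0.930, 1.33 and 1.38 in AD-1 to AD-4, against 0.878, 0.861, 0.816 and 0.871 in Sham-1 to Sham-4. C1qc counts per C1qa count ran from 0.874 to 1.02 in AD-HFD and from 0.654 to 1.03 in AD, against 0.548 to 0.636 in Sham. Neither model group overlapped Sham in these ratios, and AD-3 and AD-4 were again apart from AD-1 and AD-2. C1qc counts per C1qb count did overlap, at 0.733 to 0.869 in AD-HFD, 0.667 to 0.771 in AD and 0.654 to 0.725 in Sham. No test was run on these ratios.

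**Figure D2:**
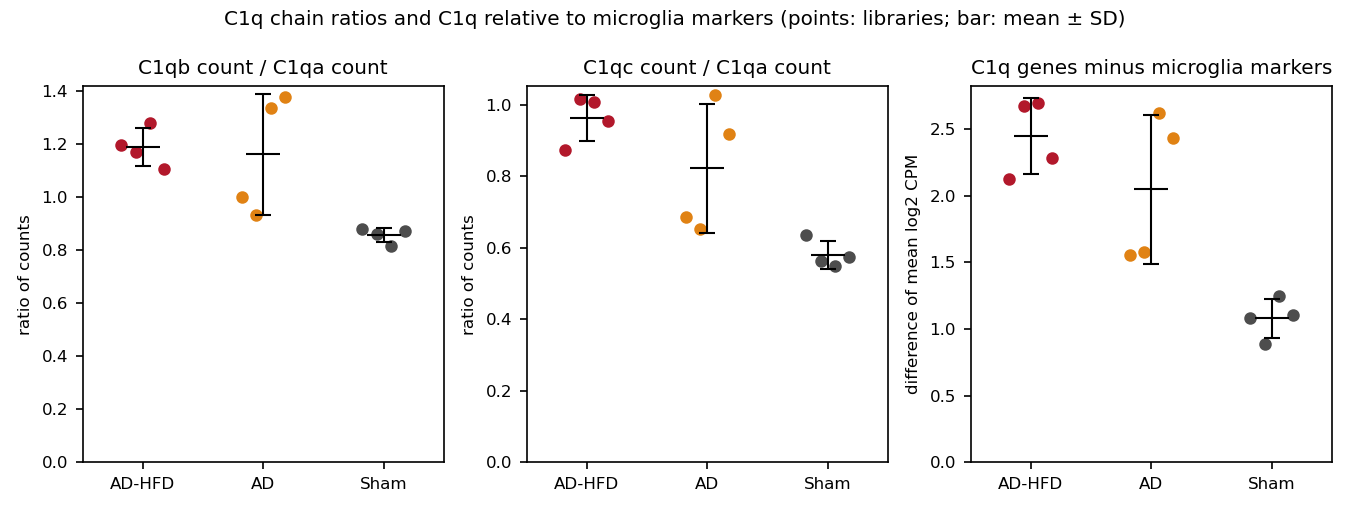
Left and middle, counts of C1qb and of C1qc per count of C1qa in each library (y axes, ratio of counts). Right, mean log2 CPM of the 3 C1q genes minus that of 17 microglia markers. Points are libraries (replicates 1 to 4 from left) and bars are mean ± SD (n = 4), and in all panels the AD-HFD and AD points lie above the Sham points.

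Set against the mean of other microglia markers C1q was higher in both model groups, but single markers moved as far as C1q or farther. The mean log2 CPM of 17 microglia markers, a list without the C1q genes and Itgam, ran from 3.30 to 4.48 in AD-HFD and from 3.44 to 3.69 in AD, against 3.34 to 3.60 in Sham. Their summed level was 339 to 717 CPM in AD-HFD and 361 to 409 CPM in AD, against 308 to 364 CPM in Sham. The mean log2 CPM of the C1q genes exceeded that of the list by 2.12 to 2.70 in AD-HFD and by 1.56 to 2.62 in AD, against 0.89 to 1.25 in Sham. In AD against Sham edgeR called none of the 17 markers (median log2 0.16, against 0.06 over all genes tested), with 4 at an unadjusted p under 0.05 (24.0% of all genes), while DESeq2 called 3 and limma voom 0. In that comparison the log2 fold changes of the phagocyte genes Ptprc (1.59 ± 0.532), Cd68 (1.64 ± 0.697) and Tyrobp (1.23 ± 0.419), none of which passed, were above that of C1qa. In AD-HFD against Sham 7 of the 17 rose and 2 fell (median log2 0.45, against 0.03 over all genes), where 32.7% of all genes were called and 19.7% were higher. The risers included Ptprc (log2 3.61 ± 0.559), Tyrobp (log2 2.58 ± 0.431) and Cd68 (log2 3.99 ± 0.705), each above all 3 C1q genes, and the fractalkine receptor gene Cx3cr1 (log2 1.18 ± 0.217). Trem2, on the same list, did not rise (log2 -0.29 ± 0.258, edgeR adjusted p = 0.395). P2ry12, a purinergic receptor gene of resting microglia, fell (log2 -1.59 ± 0.388), with 3.68 ± 1.17 CPM in AD-HFD, 7.78 ± 4.21 CPM in AD and 11.1 ± 0.979 CPM in Sham (SD, n = 4 each). Tmem119, another marker of resident microglia, was at 16.8 ± 7.02 CPM in AD-HFD, 16.4 ± 6.32 CPM in AD and 14.8 ± 0.774 CPM in Sham. In bulk tissue, more cells of a type and more RNA per cell cannot be told apart.

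The stretches before the annotated transcription starts of C1qa and C1qb, printed because these neighbouring genes moved together, share no match to the 4 motifs searched. The motifs were the PU.1 core GAGGAA, the C/EBP motif TTGCNNAA, the STAT motif TTCNNNGAA and the AP-1 motif TGANTCA, on both strands, in the 250 bases before the start. On either strand, capitals mark a STAT match in C1qa (chr5:154419934-154420183, minus strand) and 2 PU.1 matches in C1qb (chr5:154407828-154408077, minus strand), with sequences from RefSeq (GRCr8), 5′ to 3′.
C1qa: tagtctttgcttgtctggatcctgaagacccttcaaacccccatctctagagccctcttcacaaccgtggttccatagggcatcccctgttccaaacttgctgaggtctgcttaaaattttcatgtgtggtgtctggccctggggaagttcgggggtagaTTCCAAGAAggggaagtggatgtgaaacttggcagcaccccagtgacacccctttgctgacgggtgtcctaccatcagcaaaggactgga
C1qb: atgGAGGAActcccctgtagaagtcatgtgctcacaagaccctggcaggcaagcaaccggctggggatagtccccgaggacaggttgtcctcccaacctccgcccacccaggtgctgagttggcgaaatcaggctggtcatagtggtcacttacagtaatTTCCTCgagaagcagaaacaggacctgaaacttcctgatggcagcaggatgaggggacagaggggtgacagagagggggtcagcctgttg
Of 27457 rat promoters of this length, 23.2% held the PU.1 letters, 9.20% the C/EBP letters, 7.52% the STAT letters and 6.36% the AP-1 letters. Promoters were found for 6 of the 8 genes in the RefSeq table. A match describes letters in this window.

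C3 (ENSRNOG00000046834), the component on which all pathways converge, differed from the C1q genes in that AD and Sham overlapped. It stood at 36.5, 62.2, 35.9 and 67.7 CPM in AD-HFD-1 to AD-HFD-4, at 17.4, 9.66, 32.8 and 23.3 CPM in AD-1 to AD-4, and at 15.8, 28.8, 26.0 and 15.1 CPM in Sham-1 to Sham-4. All AD-HFD libraries were above all AD and all Sham libraries, while the AD libraries spread on both sides of the Sham range. C3 averaged 20.8 ± 9.75 CPM in AD and 21.4 ± 7.0 CPM in Sham (SD, n = 4 each), a log2 fold change of -0.04 ± 0.363 (edgeR adjusted p = 0.959). It ran from -0.35 to 0.22 over the fits that left out 1 library, and was above 0 without AD-1, AD-2, Sham-2 or Sham-3. It rose 2.36-fold in AD-HFD over Sham (log2 1.24 ± 0.366, adjusted p = 0.0240). Without AD-HFD-2, AD-HFD-4, Sham-1 or Sham-4 this call was lost (edgeR adjusted p 0.0641 to 0.0716), with a log2 fold change of at least 1.07 in these fits. The Sham libraries with the higher C3, replicates 2 and 3, were also those with choroid plexus markers (4705 and 4584 CPM, against 3.30 and 8.10 CPM in replicates 1 and 4). In AD-HFD-1 to AD-HFD-4 these markers summed to 10554, 560, 32.9 and 29.3 CPM, which is not the order of C3 in those libraries. The part of the choroid plexus in the level of C3 was not tested. Astrocytes and microglia can both make C3, and the summed level of 10 astrocyte markers was 1356 to 5893 CPM in AD-HFD and 3493 to 3982 CPM in AD, against 2101 to 2746 CPM in Sham. Most of this sum was the glial filament gene Gfap in AD-HFD-1, AD-HFD-2, AD-HFD-3 and AD-3, but Gfap was the lesser part in the other libraries. Gfap stood at 1874, 3893, 2130 and 252 CPM in AD-HFD-1 to AD-HFD-4. It was at 473, 517, 2520 and 1228 CPM in AD-1 to AD-4, and at 212 to 478 CPM in Sham. In AD-HFD against Sham Gfap rose (log2 2.42 ± 0.717) and the transporter gene Slc1a2 fell (log2 -0.82 ± 0.274), while 8 of the 10 astrocyte markers had log2 fold changes below 0 (median -0.40). The part of astrocytes in the level of C3 was not tested. The promoter of C3 (chr9:2201340-2201589, minus strand, GRCr8) is shown for contrast with those of C1q, and its capitals mark the 1 match found, to the C/EBP motif.
C3: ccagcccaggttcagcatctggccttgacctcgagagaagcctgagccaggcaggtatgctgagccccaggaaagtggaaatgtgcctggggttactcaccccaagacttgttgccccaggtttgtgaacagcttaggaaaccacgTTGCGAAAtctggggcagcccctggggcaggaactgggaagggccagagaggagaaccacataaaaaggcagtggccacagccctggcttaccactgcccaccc

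The anaphylatoxin receptors were low in Sham and rose in AD-HFD. C3ar1 (ENSRNOG00000009211), the receptor gene for C3a, stood at 8.51, 7.36, 3.69 and 14.4 CPM in the AD-HFD libraries, at 2.88, 2.16, 5.11 and 3.70 CPM in the AD libraries, and at 0.614, 1.41, 1.16 and 0.670 CPM in the Sham libraries. The Sham values rest on 20 to 44 counts per library. C3ar1 rose 3.60-fold in AD (log2 1.85 ± 0.466, adjusted p = 0.0393) and 8.82-fold in AD-HFD (log2 3.14 ± 0.461, adjusted p = 0.00216), both over Sham. Neither group overlapped Sham, but the call in AD was lost in 9 of the 12 fits that left out 1 library (AD-HFD-1, AD-HFD-2, AD-1, AD-3, AD-4 and each Sham library, edgeR adjusted p 0.0521 to 0.117).

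C5ar1 (ENSRNOG00000047800), the receptor gene for C5a, which is also abundant in neutrophils and monocytes, stood at 21.7, 16.8, 3.97 and 31.2 CPM in the AD-HFD libraries, at 1.66, 2.10, 6.89 and 5.22 CPM in the AD libraries, and at 0.789, 1.15, 1.70 and 0.737 CPM in the Sham libraries. AD-1 lay inside the Sham range, and AD-HFD-3 lay below AD-3 and AD-4. C5ar1 rose 16.8-fold in AD-HFD over Sham (log2 4.07 ± 0.656, adjusted p = 0.00289). In AD the log2 fold change over Sham was 1.86 ± 0.649 and did not pass by edgeR (adjusted p = 0.107). It was called by DESeq2 (adjusted p = 0.0202) and in 3 other alternatives, of which the fit without AD-HFD-3 was the only one that left out a single library (edgeR adjusted p = 0.0349). There were 2.55, 2.28, 1.08 and 2.17 C5ar1 counts per C3ar1 count in AD-HFD-1 to AD-HFD-4, 0.578 to 1.41 in AD and 0.818 to 1.47 in Sham. The ratio was above every AD and Sham library in 3 of the 4 AD-HFD libraries, and AD-HFD-3 lay inside their range.

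Of the 8 genes Itgam (ENSRNOG00000019728) had the widest spread inside the AD group. It stood at 112, 104, 45.2 and 138 CPM in the AD-HFD libraries, at 12.0, 7.82, 65.2 and 54.0 CPM in the AD libraries, and at 4.15, 6.49, 6.53 and 5.46 CPM in the Sham libraries. The highest AD library was 8.34 times the lowest, and AD-3 and AD-4 were above AD-HFD-3. Itgam rose 6.14-fold in AD (log2 2.62 ± 0.615, adjusted p = 0.0300) and 17.7-fold in AD-HFD (log2 4.14 ± 0.651, adjusted p = 0.00266), both over Sham. The call in AD was lost without AD-4 or any 1 Sham library (edgeR adjusted p 0.0709 to 0.0927). Itgb2, the gene of the partner chain CD18, rose in AD-HFD over Sham (log2 3.45 ± 0.565, adjusted p = 0.00297), at 73.8, 76.8, 25.2 and 139 CPM in AD-HFD and 6.66 to 7.67 CPM in Sham. It was at 12.4, 9.60, 44.8 and 35.4 CPM in AD-1 to AD-4, with the same high and low libraries as Itgam (log2 1.83 ± 0.537 over Sham, adjusted p = 0.0644).

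The promoter of Itgam (chr1:192089342-192089591, plus strand, GRCr8), shown because its 250 bases held matches to 3 of the 4 motifs, has in capitals, from its 5′ end, a C/EBP, a PU.1, a STAT and a second PU.1 match.
Itgam: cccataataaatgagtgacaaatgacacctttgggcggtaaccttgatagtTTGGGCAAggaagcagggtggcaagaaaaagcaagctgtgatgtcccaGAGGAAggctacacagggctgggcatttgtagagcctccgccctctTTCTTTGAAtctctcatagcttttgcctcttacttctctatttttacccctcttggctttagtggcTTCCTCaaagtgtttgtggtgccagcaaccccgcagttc
The corresponding windows of C3ar1 and Cd55 held 1 AP-1 match in C3ar1 and none in Cd55.

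Cd55 (ENSRNOG00000003927) had the largest fold change of the 8 genes in AD-HFD. It stood at 32.7, 67.3, 45.0 and 164 CPM in the AD-HFD libraries, at 4.16, 7.67, 22.3 and 10.5 CPM in the AD libraries, and at 3.45, 3.90, 3.88 and 3.08 CPM in the Sham libraries. The 3 groups did not overlap, in the order AD-HFD, AD, Sham, although AD-1 was close to the Sham range. Cd55 rose 21.6-fold in AD-HFD over Sham (log2 4.43 ± 0.602, adjusted p = 0.00176). In AD the log2 fold change over Sham was 1.64 ± 0.555 and did not pass (adjusted p = 0.0982), by edgeR. It was called by DESeq2 (adjusted p = 0.0232) and in 4 other alternatives, of which the fit without AD-HFD-4 was the only one that left out a single library (edgeR adjusted p = 0.0417). Between AD-HFD and AD the log2 fold change was 2.79 ± 0.551 (adjusted p = 0.0605 by edgeR).

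In AD against Sham 5 of the 8 genes were called, all higher (C1qa, C1qb, C1qc, C3ar1 and Itgam), where 6.23% of all genes tested were called and 3.07% were called higher. For 6 of the 8 genes every AD library was above every Sham library, against 10.3% of all genes. The count of 5 was 2 without AD-4, Sham-1, Sham-2 or Sham-3 and 1 without Sham-4. DESeq2 called 7 and limma voom 3. Without the 4 libraries with choroid plexus markers (Sham-2, Sham-3, AD-HFD-1 and AD-HFD-2) edgeR called 0 of the 8 and 4 of all genes. C1qb was called in all 12 fits that left out 1 library. With all libraries the median log2 fold change of the 8 genes was 1.52, against 0.06 over all genes tested. The groups of this comparison also differed in tissue markers. The thalamus sum was 2156, 686, 142 and 1543 CPM in AD-1 to AD-4, against 88.3 to 221 CPM in Sham. The model and the tissue content of the libraries cannot be told apart here. With the AD libraries high in thalamus markers left out (replicates 1, 2 and 4), C3 had a log2 fold change of 0.61 over Sham. That fit took AD-3, the lone AD library, to vary like the other groups, and the log2 fold changes of the other members kept their sign.

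In AD-HFD against Sham 8 of the 8 genes were called, all higher, but 32.7% of all genes tested were called and 19.7% were called higher. In this comparison 8 of 8 genes had every AD-HFD library above every Sham library, against 18.9% of all genes. The median log2 fold change of the 8 genes was 2.71, against 0.03 over all genes. Each of the 12 fits that left out 1 library called at least 7 of them, C3 being the gene lost. Without the 4 libraries with choroid plexus markers, which leaves 2 libraries each of AD-HFD and Sham, edgeR called no gene of the table, and the 8 log2 fold changes were 1.59 to 4.97.

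The comparison of AD-HFD with AD holds the diet within the model and shares its AD and AD-HFD libraries with the comparisons above. Its groups also differed in tissue markers. The thalamus sum was 2156, 686, 142 and 1543 CPM in AD-1 to AD-4, against 122 to 140 CPM in AD-HFD. The diet and the tissue content of the libraries cannot be told apart here. All 8 log2 fold changes were above 0 (median 1.29, against 0.04 over all genes), and edgeR called none, where 0.0106% of all genes were called. At an unadjusted p under 0.05 edgeR counted 8 of 8, where 17.1% of all genes were higher at this limit. DESeq2 called 6 (C1qa, C1qc, C3, C3ar1, C5ar1 and Cd55) and limma voom 0. At an adjusted p under 0.1, 7 of the 8 passed by edgeR, all but Itgam (adjusted p = 0.108), against 10.4% of all genes that were higher at this limit. The log2 fold changes were 0.71 ± 0.195 for C1qa, 0.69 ± 0.243 for C1qb, 0.89 ± 0.263 for C1qc, 1.28 ± 0.366 for C3, 1.29 ± 0.408 for C3ar1, 2.21 ± 0.580 for C5ar1 and 1.52 ± 0.578 for Itgam. For C3 and Cd55 every AD-HFD library was above every AD library, which held for 2.72% of all genes, and for the other 6 genes AD-HFD-3 overlapped the AD group. Without AD-3, and likewise without AD-HFD-3, all 8 were called (log2 0.79 to 3.38 and 0.80 to 2.97), while 5841 and 5321 of all genes were called in these fits, against 2 with all libraries.

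**Figure D3:**
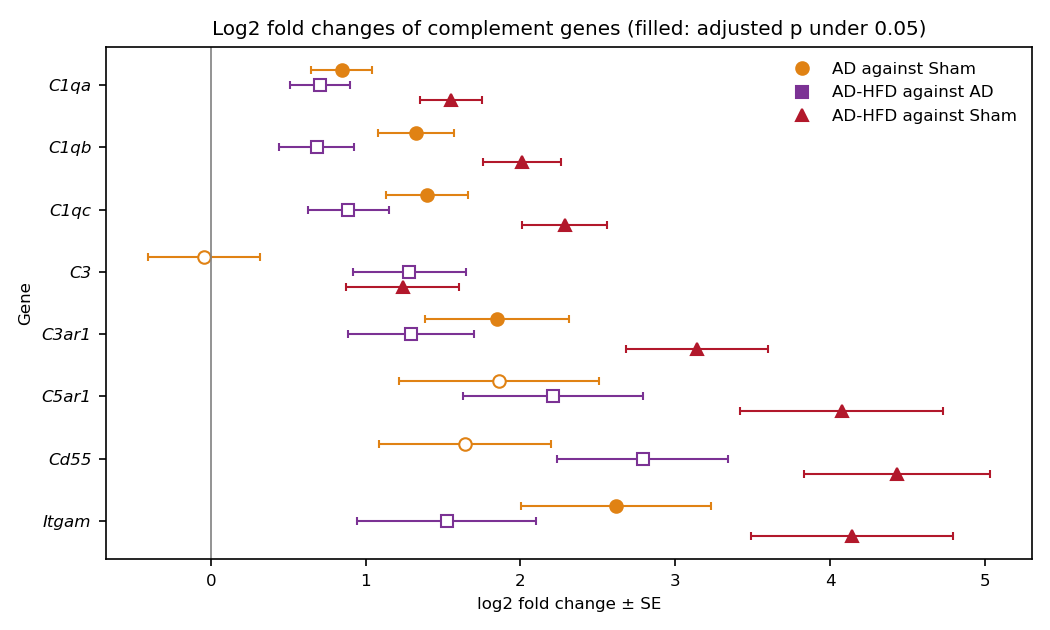
Log2 fold change ± SE (x axis) of each complement gene (y axis) in AD against Sham (circles), AD-HFD against AD (squares) and AD-HFD against Sham (triangles). Filled symbols passed an adjusted p under 0.05 by edgeR. C3 is the 1 gene near 0 in AD against Sham, and no square is filled.

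Markers of some other cells were also higher in the model groups, but not always in the same AD libraries as the complement genes. The summed level of 8 border macrophage markers was 25.0 to 141 CPM in AD-HFD and 19.8 to 31.3 CPM in AD, against 3.74 to 10.3 CPM in Sham. That of 7 blood leukocyte markers was 13.7 to 205 CPM in AD-HFD and 15.6 to 42.9 CPM in AD, against 1.84 to 2.28 CPM in Sham. Both sums were highest in AD-HFD-4, the library with the highest level of all 8 complement genes. In AD-1 to AD-4 the border macrophage sums were 31.3, 24.1, 19.8 and 27.0 CPM, lowest in AD-3. The leukocyte sums there were 20.9, 15.6, 42.9 and 16.8 CPM, with AD-4 below AD-1. In AD-HFD against Sham 7 of 8 border macrophage and 6 of 7 leukocyte markers rose, among them Cd163 (log2 5.20 ± 0.575) and the neutrophil gene S100a8 (log2 6.14 ± 0.822), and in AD against Sham 3 of 8 and 3 of 7 rose. Over all genes 19.7% were called higher in AD-HFD and 3.07% in AD, both against Sham. The T cell gene Cd3e passed in neither comparison (log2 0.70 ± 0.752 in AD-HFD and -2.02 ± 1.03 in AD), and the lymphocyte markers Cd3d and Ms4a1 had too few counts to be tested. AD-HFD-4 also had the highest red blood cell sum, given above, and the highest sum of 9 leptomeningeal fibroblast markers, 991 CPM, against 89.3 to 545 CPM in Sham. Against the same shares of all genes, 15 of 16 reactive astrocyte genes rose in AD-HFD and 5 in AD over Sham. Their summed level in AD-1 to AD-4 was 193, 220, 1862 and 474 CPM, with AD-3 and AD-4 higher, as for the complement genes. The part of these cells in the complement levels was not tested.

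**Figure D4:**
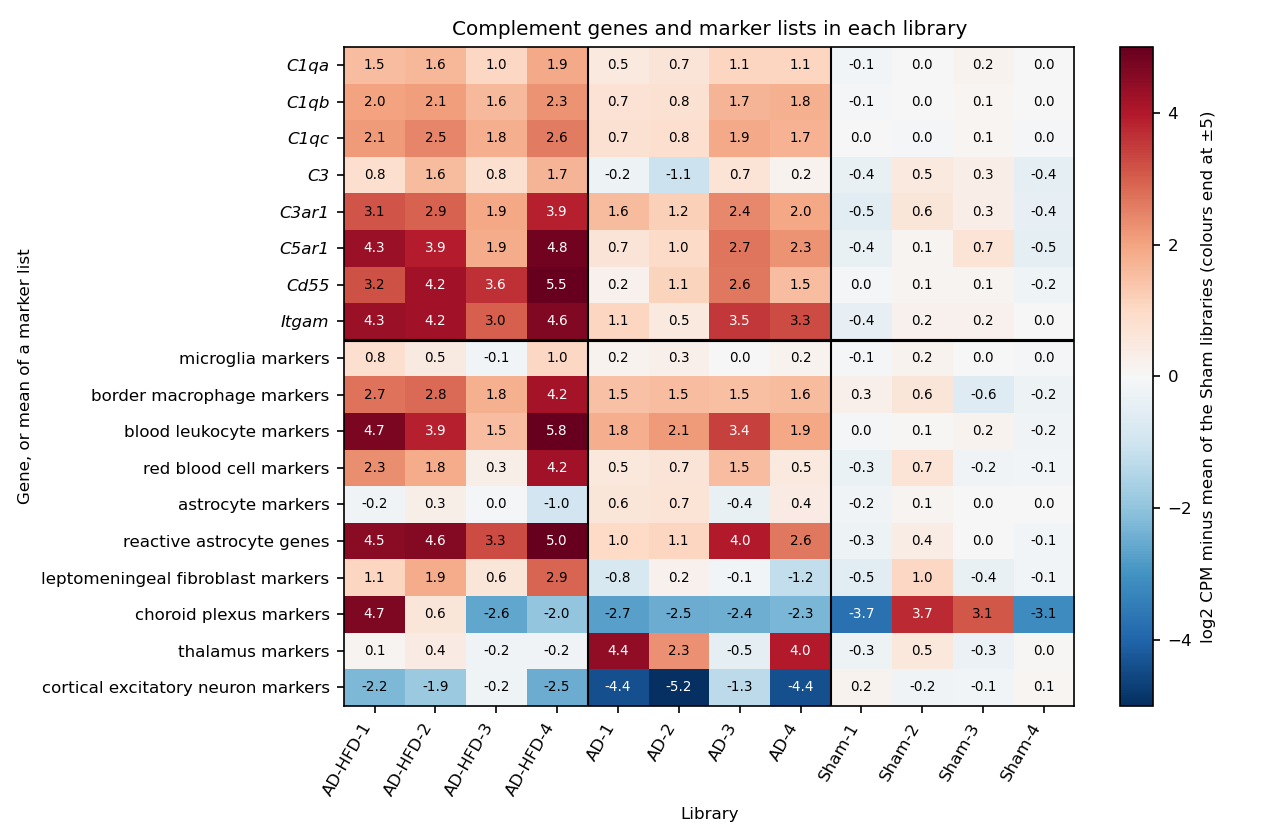
Log2 CPM of each complement gene and mean log2 CPM of each marker list (rows), as a difference from the mean of the Sham libraries, in the 12 libraries (columns). Red is higher and blue lower than the Sham mean. The microglia row stays between -0.1 and 1.0 while C1qb reaches 2.3 and Itgam 4.6 in AD-HFD-4.

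Among 13140 other genes with a symbol and a mean of at least 1 CPM, those most like each pattern were ranked by the root mean square difference of log2 CPM, centred on each gene's mean, over the 12 libraries. The mean of the C1q genes was matched most closely by Cyth4 (0.174), Mthfd2 (0.187), Irf9 (0.193), Rpl12 (0.220) and Shq1 (0.225). For comparison the difference was 0.137 between C1qb and C1qc and 0.259 between C1qa and C1qb. For C3 the closest were C1qtnf1 (0.267), Ttc7a (0.303), Ptpn21 (0.320), Stk17b (0.351) and Fyb1 (0.355). C3ar1 was closest to Clic4 (0.259), Lcp1 (0.271), Serpinh1 (0.316), Ybx3 (0.318) and Rhoc (0.326), and C5ar1 to Cd68 (0.272), Gbp2 (0.284), Tspo (0.309), Ptprc (0.315) and Slc11a1 (0.363). Itgam was closest to Clec12a (0.258), Ripk3 (0.329), Lsp1 (0.346), Rgs1 (0.386) and Clic1 (0.386). The closest to Cd55 were farther away, namely Ifitm1 (0.410), Ifitm3 (0.421), Anxa2 (0.440), Mgp (0.451) and Mmp19 (0.477).

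Over Sham, other genes of the pathway were called mostly in AD-HFD, as were all genes tested. Of 44 other complement genes listed, 41 were in the table and 32 could be tested. In AD-HFD against Sham 18 of the 32 rose and none fell (median log2 1.51), where 32.7% of all genes were called. DESeq2 called 22 and limma voom 16. In AD against Sham 1 of the 32 rose (median log2 0.46), the ficolin gene Fcnb, which is also a neutrophil gene in mouse and stood at 0.866, 0.904, 2.86 and 0.689 CPM in AD-1 to AD-4 against at most 0.128 CPM in Sham. In that comparison 7 of the 32 had an unadjusted p under 0.05 by edgeR, where 24.0% of all genes did. Of all genes 6.23% were called and 3.07% were called higher, so these counts in AD are no result about the other complement genes as a group. DESeq2 called 5 and limma voom 0, and the edgeR count was 0 without AD-3, AD-4 or any 1 Sham library and at most 5 without any other library. In AD-HFD against AD edgeR called none (16 at an unadjusted p under 0.05, as 30.5% of all genes, median log2 0.84), DESeq2 11 and limma voom 0. Without AD-3 edgeR called 13, and without AD-HFD-3 it called 14.

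Among the genes that act beside and after C1q, 7 of 11 of the classical and lectin steps rose in AD-HFD over Sham, where 19.7% of all genes were called higher. They included the C1 protease gene C1s (log2 2.16 ± 0.425), the convertase gene C2 (log2 1.74 ± 0.299) and C4b (log2 2.34 ± 0.549), whose reads could be shared with its near copy C4a. C2 stood at 28.4, 34.4, 16.6 and 51.6 CPM in AD-HFD, and at 8.0 to 11.7 CPM in Sham. Of 4 alternative pathway genes 2 rose, among them the convertase gene Cfb (log2 3.32 ± 0.715). Cfb was at 53.5, 30.0, 9.07 and 155 CPM in AD-HFD-1 to AD-HFD-4 and at 1.94 to 9.43 CPM in Sham, so that AD-HFD-3 lay inside the Sham range. Of 7 terminal components, which build the membrane pore, 3 could be tested and C6 (log2 5.57 ± 0.895) and C7 (log2 2.16 ± 0.726) rose, with C6 at 0.969 to 9.65 CPM in AD-HFD and at most 0.320 CPM in Sham. C5, the source of the ligand of C5ar1, stayed at or under 0.327 CPM in all libraries and was not tested.

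Of 7 regulators tested 3 rose in AD-HFD over Sham and none fell, where 32.7% of all genes were called and 19.7% were higher, so this count is no result about the regulators as a group. They were Serping1, the C1 inhibitor gene (log2 3.13 ± 0.723), Cr1l (log2 1.42 ± 0.343), whose product is a membrane regulator of C3 in rodents, and Cfi, which encodes a protease that cleaves C3b (log2 4.59 ± 1.63, adjusted p = 0.0492). Cfi had 5 to 26 counts per AD-HFD library, and 2 counts in Sham-2 and 0 in the other Sham libraries. Serping1 was at 45.1, 122, 41.5 and 140 CPM in AD-HFD, at 7.24, 10.4, 73.8 and 18.5 CPM in AD and at 5.67 to 14.2 CPM in Sham. Of 7 other receptors 4 rose, namely Itgb2, Itgax, the second C5a receptor gene C5ar2 (log2 2.15 ± 0.498) and Calr (log2 0.82 ± 0.191), a chaperone gene whose product can bind C1q. Itgax, the CD11c chain gene, stood at 53.0, 54.9, 9.16 and 59.6 CPM in AD-HFD, at 0.416, 0.467, 21.8 and 13 CPM in AD-1 to AD-4 and at 0.0584 to 0.639 CPM in Sham, which is the same division of the AD libraries as for Itgam.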

How the data were processed

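RNA of 12 brain samples was sequenced. The sample titles gave each group and replicate number. Per the labels' protocols, TRIzol was used for extraction and a Yeasen mRNA kit for the libraries. FastQC and Trimmomatic are named, without versions, in the submitters' processing notes. The aligner, counting program, strand setting, genome build and annotation are not given in the sources used here. The authors deposited raw counts per gene, unnormalized, for 31177 rows (22050 with Ensembl identifiers). Without a stated strand setting, reads of overlapping genes cannot be told apart.

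The tests used edgeR 4.0.16 under R 4.3.3. Genes kept by filterByExpr (18850) were scaled by TMM and fitted by the non-legacy quasi-likelihood method with 1 mean per group over all 12 libraries. Log2 CPM used a prior count of 2. The SE is the log2 fold change divided by the square root of F. Alternatives were DESeq2 1.42.0, limma 3.58.1 voom, the legacy method, other scalings and filters, the replicate block, the compared groups alone and left-out libraries. Each fit without some libraries had its own filter and scaling. The fit was also run on simulated counts without differences in tissue content between libraries, and the outcome is not reported here. The members and gene lists were chosen with earlier results of these data known. From each list, up to 4 called genes with the smallest p were named, and a few others were chosen after their values were seen. Fcnb, Serping1, Tyrobp, Trem2 and Cx3cr1 stand in more than 1 list. No library pair agreed within sampling noise. Some genes of the lists are not reported here.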

Additional observations from a re-analysis of the deposited data

How the results depend on the processing

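Across all alternatives the sign of the log2 fold change stayed as reported for every gene and comparison except C3 in AD against Sham. There it ran from -0.35 to 0.22 when 1 library was left out, above 0 without AD-1 (0.06), AD-2 (0.22), Sham-2 (0.10) or Sham-3 (0.06). It was 0.61 without the AD libraries high in thalamus markers (replicates 1, 2 and 4), and 0.40 without the 4 libraries with choroid plexus markers (Sham-2, Sham-3, AD-HFD-1 and AD-HFD-2), and it was not called in any of these fits. For AD against Sham the 5 complement genes called became 3 with limma voom and 0 without these 4, and ran from 1 to 6 when 1 library was left out. The 1 other complement gene called became 5 with DESeq2 or with the compared groups alone, 0 with limma voom, 4 without those AD libraries, 6 without replicates 3 and 4 of AD-HFD and 0 without the 4 choroid plexus libraries, and ran from 0 to 5 when 1 library was left out. For AD-HFD against AD the count of 0 became 6 with DESeq2 and 3 without replicates 3 and 4 of AD-HFD, and ran from 0 to 8 when 1 library was left out. The count of 0 for the other complement genes became 11 with DESeq2 and to 9 without the same pair, and ran from 0 to 14. For AD-HFD against Sham the counts of 8 and 18 ran from 7 to 8 and from 16 to 21, and both became 0 without the 4 choroid plexus libraries, a fit with 2 AD-HFD and 2 Sham libraries in which no gene at all was called and all 8 genes kept log2 fold changes of at least 1.59. The replicate numbers are shared by the groups, but the labels do not say that they pair the libraries, and same-numbered libraries correlated at -0.317 to 0.0947 in their deviations from the group means, with at most 2 of 8 libraries closest to their own number. With the replicate block the counts for AD against Sham were 2 of the 8 genes (C1qb and C1qc) and 0 of the other complement genes, and the block moved no other count of complement genes by over 1.5 times. The cause of these shifts was not tested. Scaling by total counts or RLE, other filters and the legacy method changed no call of the 8 genes. The fewest counts, 20 to 50 per Sham library for C3ar1 and C5ar1, limit the precision of these 2 genes.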

Other observations

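Genes that act in phagocytosis, with or without complement, were described beside the pathway. Of 17 phagocytic receptors and bridging ligands, 10 rose and 2 fell in AD-HFD against Sham, and 2 rose and 1 fell in AD against Sham, where 32.7% and 6.23% of all genes were called. The scavenger receptor gene Msr1 stood at 37.3, 28.9, 10.8 and 60.2 CPM in AD-HFD, at 1.07, 0.496, 16.8 and 12.7 CPM in AD and at no more than 0.335 CPM in Sham. The Fc receptor gene Fcgr1a rose in AD-HFD (log2 3.73 ± 0.517) and in AD (log2 1.96 ± 0.507). Sirpa, which encodes the receptor for the signal CD47 that restrains phagocytes, fell in AD (log2 -0.87 ± 0.171, edgeR adjusted p = 0.0154) and in AD-HFD (log2 -0.73 ± 0.171, edgeR adjusted p = 0.00964). Its levels were 176 to 279 CPM in AD-HFD and 196 to 224 CPM in AD, against 335 to 411 CPM in Sham. The summed level of cortical excitatory neuron markers, given below, was also lower in all AD-HFD and AD libraries than in Sham. The part of neurons in the level of Sirpa was not tested.

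Of 10 genes listed as neuronal regulators of C1q and C3, 3 fell and 1 rose in AD-HFD against Sham, and 1 fell in AD against Sham. These shares of the list were near the 32.7% and 6.23% of all genes called. The list also held Cd47, the gene of the signal named above. The riser was Srpx2 (log2 1.58 ± 0.506). Nptx1, a neuronal pentraxin gene, fell in both (log2 -1.43 ± 0.465 in AD-HFD and -1.85 ± 0.471 in AD). The pentraxin gene Nptx2 went the other way without passing by edgeR. Its log2 fold change was 2.97 ± 1.08 in AD-HFD (adjusted p = 0.0522) and 2.83 ± 1.07 in AD (adjusted p = 0.134). Nptx1 stood at 81.0, 141, 317 and 55.8 CPM in AD-HFD and at 93.1, 111, 178 and 63.6 CPM in AD, against 355 to 435 CPM in Sham. The summed level of 10 cortical excitatory neuron markers was also below Sham in all of these libraries. It was 575, 842, 2076 and 521 CPM in AD-HFD and 282, 109, 1312 and 180 CPM in AD, against 2414 to 2924 CPM in Sham. Its order over the libraries was that of Nptx1 in AD-HFD but not in AD, where the sum was lowest in AD-2 and Nptx1 in AD-4. The part of these neurons in the level of Nptx1 was not tested.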
